A study of Homo sapiens with 4 samples.

Results

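AP-1 is a family of dimeric transcription factors, and the 9 genes described here encode its FOS proteins (FOS, FOSB, FOSL1 and FOSL2), its JUN proteins (JUN, JUNB and JUND) and the related factors ATF3 and BATF3. They were chosen by name, as the rows that carry 1 of these 9 symbols among the 23287 gene symbols of the deposited RNA-seq tables. Each was followed through its transcripts and through the progesterone receptor (PR) binding sites in or near its locus. The proteins pair through a leucine zipper, JUN proteins with each other or with FOS or ATF proteins, whereas FOS proteins need a JUN partner. The dimers bind short palindromic elements, and many of the genes are switched on within minutes to hours of a mitogenic or stress signal. In breast epithelial cells AP-1 dimers act on genes of proliferation and invasion, and they can also serve steroid hormone receptors as a tether to DNA.

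The study asked how a progestin changes the transcriptome of T47D, a PR-positive line of human breast cancer cells. Cells kept for 24 h in charcoal-stripped serum were treated for 3 h with 10 nM of R5020, a synthetic progestin, or with its vehicle ethanol (EtOH), and 1 RNA-seq library of each was sequenced. For ChIP-seq with an antibody against the PR, cells kept for 72 h in stripped serum received 10 nM R5020 for 1 h, and 1 library was made. There was therefore no replicate for any value below, no p-value is given, and every difference compares these libraries of 1 cell line. In such bulk RNA, fewer expressing cells and less RNA per cell cannot be told apart. Summed over the listed transcripts, the deposited coverage corresponded to 35151493 reads of 50 nt in EtOH and 36203604 in R5020. These sums are not the depth of sequencing. For that, the paper reports larger numbers of unique paired-end reads, with more in EtOH than in R5020. FKBP5, a classical steroid receptor target, read 15.9 FPKM in EtOH and 86.6 FPKM in R5020, a log2 fold change of 2.38. Of 7 luminal markers, KRT19, GATA3, EPCAM, PGR and ESR1 had more than 10 FPKM in both libraries, while KRT8 and KRT18 were listed at 0 in EtOH only, where Cufflinks had marked their estimate as failed. Of 6 markers of other cells, KRT5, KRT14, VIM, PECAM1 and PTPRC stayed under 1 FPKM and the collagen gene COL1A1 read 5.12 and 3.31 FPKM.

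Levels are given as FPKM, fragments per kilobase of transcript and scaled to the library size, summed over the transcripts of a gene, which allows genes of different length to be compared. A gene was retained if it reached 1 FPKM in at least 1 library, and 5 of the 9 AP-1 genes were. The change was taken as log2((FPKM in R5020 + 1) / (FPKM in EtOH + 1)), with a threshold of 1.5-fold. ATF3 and JUN were higher in R5020 by at least 1.5-fold, that is 2 of the 5 retained AP-1 genes, beside 7.67% of all 11018 retained genes. None of the 5 was lower by this threshold, which 4.14% of all retained genes passed. The median log2 fold change was 0.14 over the 5 AP-1 genes and 0.01 over all retained genes.

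**Figure D1:**
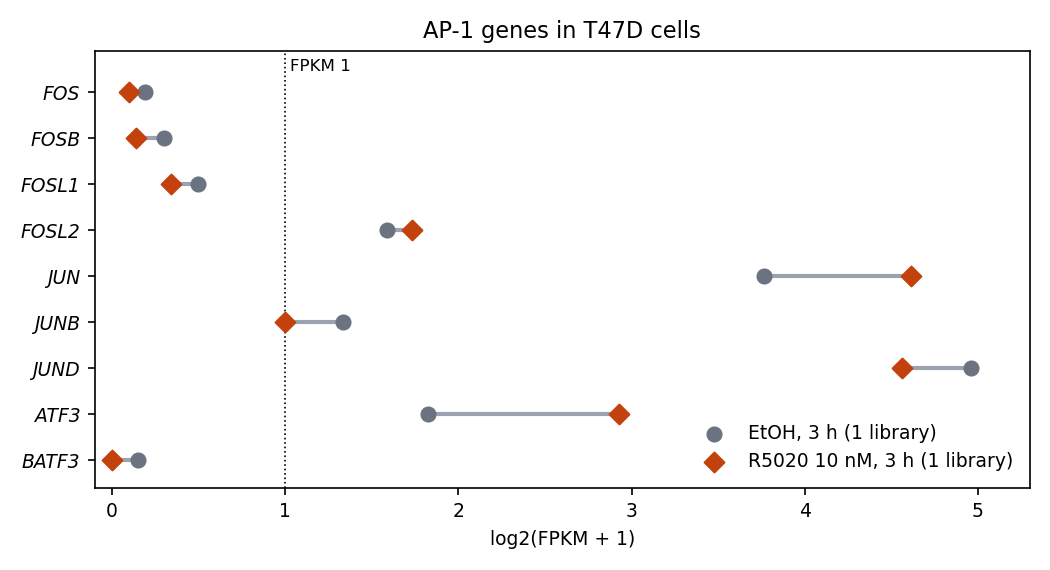
Level of each AP-1 gene as log2(FPKM + 1) on the horizontal axis, with a circle for the EtOH library and a diamond for the R5020 library. ATF3 and JUN lie further right in R5020, JUND and JUNB further left, and FOS, FOSB, FOSL1 and BATF3 remain left of the dotted line at 1 FPKM in both libraries.

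In EtOH the order of levels was JUND, JUN, ATF3, FOSL2, JUNB, FOSL1, FOSB, FOS and BATF3. JUND ranked 823rd among all genes and BATF3 ranked 13923rd. In R5020 the order began with JUN and JUND, whose levels differed by 1.04-fold, followed by ATF3, FOSL2 and JUNB. FPKM was higher in R5020 for 3 of the 9 genes (ATF3, JUN and FOSL2) and lower for the other 6. Of these 6, FOS, FOSB, FOSL1 and BATF3 were under 1 FPKM in both libraries. Among the 5 retained AP-1 genes, 3 log2 fold changes were above 0 and 2 below, beside 5607 and 5411 of all 11018 retained genes.

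ATF3 encodes a stress-inducible bZIP factor that represses as a homodimer and can activate when paired with JUN. It read 2.55 FPKM in EtOH and 6.60 FPKM in R5020. Its log2 fold change of 1.1 was the largest change among the 9 genes and lay at the 97.1th percentile of the retained genes. The deposited coverage corresponded to 504 reads in EtOH and 1247 reads in R5020. Of its 6 RefSeq transcripts, 3 were listed at 0 in both libraries, and the signal came from transcripts with a shared start on chromosome 1 (hg19). NM_001206488 held most of it, with 2.29 FPKM (Cufflinks interval 2.0 to 2.59) in EtOH and 5.50 FPKM (5.00 to 6.01) in R5020. NM_001674 was listed at 0 in EtOH and read 1.1 FPKM in R5020, while NM_001040619 read 0.254 FPKM in EtOH and was listed at 0 in R5020. As these transcripts overlap, the split among them is an estimate of Cufflinks.

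The 3 retained genes with the pair of levels nearest to that of ATF3, over the 2 libraries, were PLIN2 (2.69 and 6.63 FPKM), CXCL12 (2.41 and 6.51 FPKM) and LOC100287482 (2.64 and 6.97 FPKM). They were the only retained genes within a distance of 0.1 on the log2(FPKM + 1) scale.

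The ATF3 locus had 3 PR binding sites within 50 kb. The site that overlapped the gene was centred 0.111 kb upstream of the main transcript start, where a longer transcript has an intron, and its score was 75.04. The score is that of the peak caller MACS, the negative log10 of its p-value multiplied by 10, and over the 11181 sites it ran from 50 to 1965 with a median of 74.5. The other sites lay upstream of the longest transcript, 47.9 kb and 45.9 kb from the main start, with scores of 91.0 and 53.2. A progesterone response element (PRE) is an inverted repeat of TGTTCT spaced by 3 bases, and its core was searched here as ACANNNTGT. The central 300 bases of the site at 47.9 kb held the core and a pair of half-sites, shown in capitals, whereas neither letters were found in the stretch at the start site, which is printed up to the first base of the RefSeq transcripts. Both stretches are from hg19, plus strand.
ATF3 site 47.9 kb upstream, chr1:212734030-212734329: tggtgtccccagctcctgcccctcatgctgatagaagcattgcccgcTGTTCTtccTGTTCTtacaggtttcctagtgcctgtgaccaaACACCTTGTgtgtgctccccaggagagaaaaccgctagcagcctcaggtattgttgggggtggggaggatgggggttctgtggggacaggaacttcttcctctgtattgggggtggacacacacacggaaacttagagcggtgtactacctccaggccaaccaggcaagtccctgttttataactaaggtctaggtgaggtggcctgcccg
ATF3 start site, chr1:212781702-212781969: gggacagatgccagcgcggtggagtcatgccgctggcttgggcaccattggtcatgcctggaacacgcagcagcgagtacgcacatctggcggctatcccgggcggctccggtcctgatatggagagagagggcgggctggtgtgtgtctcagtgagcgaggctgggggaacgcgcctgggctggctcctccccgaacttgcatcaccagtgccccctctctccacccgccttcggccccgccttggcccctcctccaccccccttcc

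In the sequence above, the half-sites TGTTCT lie 3 bases apart as a direct repeat, not as the inverted repeat of a full element. The strongest site around ATF3 lay outside the 50 kb limit. With a score of 939 it ranked 7th of the 11181 sites, and it was located 78.5 kb from the nearest ATF3 transcript and 122 kb upstream of the main start, in an intergenic region. The transcript start nearest to it belonged to NENF, which read 5.73 FPKM in EtOH and 5.24 FPKM in R5020.

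BATF3, an ATF3 relative best known from dendritic cells, lies on the same chromosome. It read 0.109 FPKM in EtOH, which corresponded to 10.8 reads, and was listed at 0 in R5020. It had no PR binding site within 50 kb, and the nearest was the ATF3 start site at 77.5 kb.

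JUN encodes c-Jun, the strongest activator among the JUN proteins. It read 12.6 FPKM in EtOH and 23.5 FPKM in R5020, a log2 fold change of 0.85 at the 95.5th percentile of retained genes. Coverage corresponded to 3996 and 7159 reads. JUN has a single transcript without introns, NM_002228, and its Cufflinks intervals of 8.47 to 9.71 in EtOH and 16.2 to 18.0 in R5020 lay apart. The FPKM was above its own interval in both libraries, a discrepancy taken up below.

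JUND, the JUN protein that is expressed most steadily, read 30.1 FPKM in EtOH and 22.7 FPKM in R5020. Its log2 fold change of -0.39 was under the threshold, although it lay at the 9.09th percentile of retained genes and its intervals of 6.04 to 7.46 and 4.52 to 5.77 lay apart. JUNB, which opposes c-Jun on many promoters, read 1.52 FPKM in EtOH and 1.001 FPKM in R5020, a log2 fold change of -0.33. Its intervals of 0.415 to 0.785 and 0.256 to 0.639 overlapped. JUNB lies within the annotated extent of HOOK2 on the opposite strand, and as the sources used here do not state whether the quantification used strand, the split of reads between the pair is uncertain. HOOK2 read 7.17 and 4.77 FPKM.

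The FPKM of the JUN family summed to 44.2 in EtOH and 47.1 in R5020, and the interval midpoints, a lower scale described below, to 16.4 and 22.7, a ratio of 1.38. By FPKM, JUND made up 68.0% of the sum in EtOH and 48.1% in R5020, JUN made up 28.5% and 49.8%, and JUNB made up 3.44% and 2.12%. By interval midpoints, JUND made up 41.05% and 22.7%, and JUN made up 55.3% and 75.3%. The share of JUN was thus larger in R5020 on both scales, while its size in either library depended on the scale. The FPKM of JUN over that of JUND was 0.419 in EtOH and 1.04 in R5020.

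**Figure D2:**
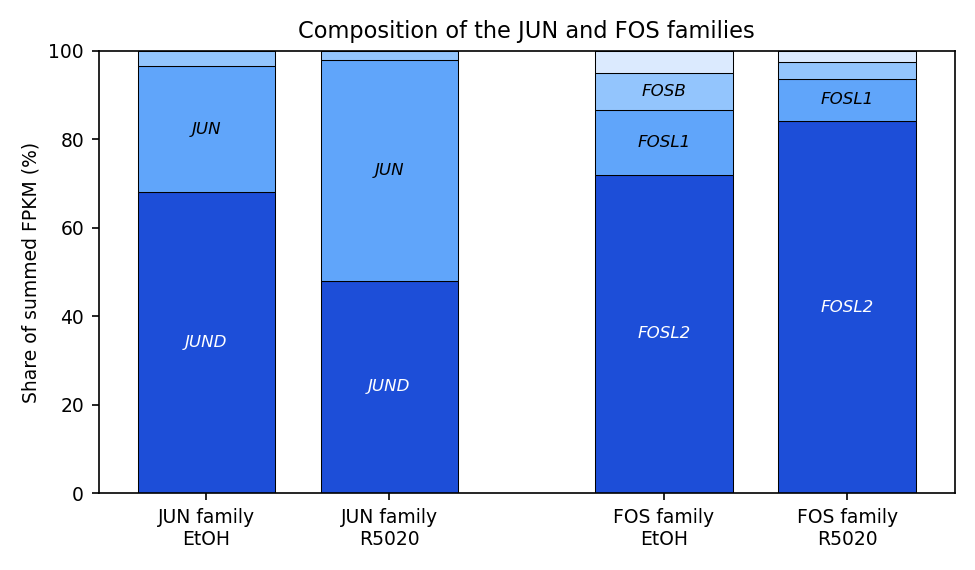
Share of each gene in the summed FPKM of its family, in percent, for the EtOH and R5020 libraries. The JUND part of the JUN family bar shrinks from 68.0% to 48.1%, and the FOSL2 part of the FOS family bar grows from 72.01% to 84.1%. By interval midpoints, not drawn, the JUND share is 41.05% and 22.7%.

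The order of JUN and JUND depends on which deposited value is read. Coverage gave the order of FPKM, with 60.1 for JUN and 138 for JUND in EtOH, and 108 and 98.5 in R5020. The interval midpoints did not. For JUN, JUNB, JUND and FOSL2, which are 4 of the 6 AP-1 transcripts with at least 1 FPKM in a library, the FPKM in EtOH lay outside the interval deposited beside it, as it did for 33.4% of all such transcripts. The FPKM was 4.46 times the midpoint of the interval for JUND in EtOH, 2.54 times for JUNB, 1.62 times for FOSL2 and 1.39 times for JUN, but 0.9993 times for the main ATF3 transcript. In R5020 these factors were 4.40, 2.24, 1.63, 1.38 and 0.9995, so that they largely cancel in a comparison of the libraries. By midpoints, JUN read 9.09 in EtOH and 17.1 in R5020, and JUND read 6.75 and 5.15. JUN was thus above JUND in both libraries on this scale, with a ratio of 1.35 in EtOH and 3.32 in R5020. The changes between libraries were close on both scales, with log2 fold changes of 0.85 by FPKM and 0.84 by midpoints for JUN, and of -0.39 and -0.33 for JUND. Intervals lay apart for 4 of the 6 transcripts, namely those of JUN and JUND and 2 of ATF3, and for 48.1% of all transcripts, so an interval that lies apart is common in these libraries.

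**Figure D3:**
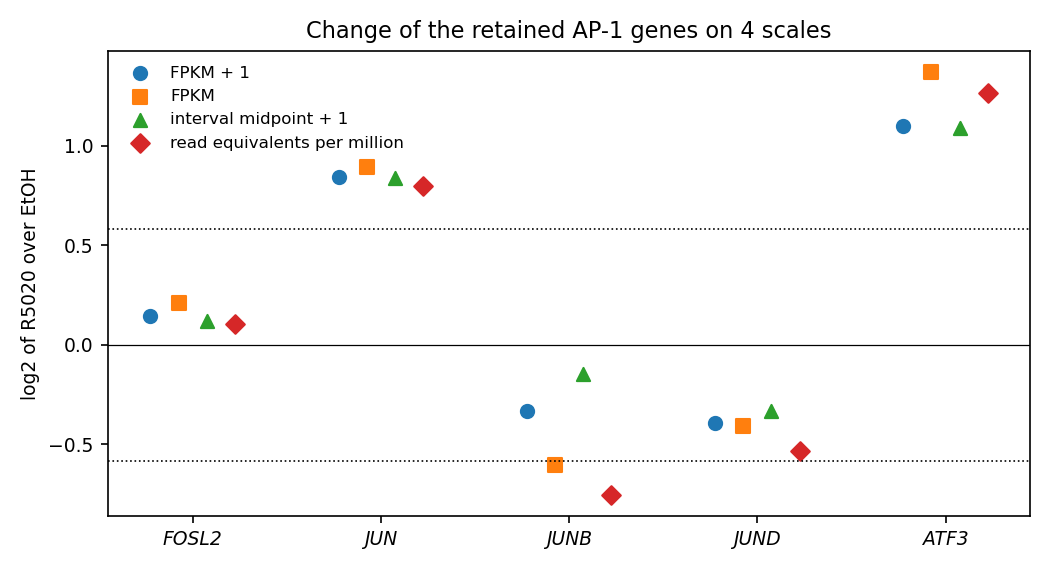
log2 ratio of R5020 over EtOH for the 5 retained AP-1 genes on 4 scales, namely FPKM with a pseudocount of 1, FPKM without one, the interval midpoint with a pseudocount of 1, and reads computed from coverage as a share of the library. Dotted lines mark 1.5-fold. ATF3 and JUN lie above the upper line on all 4 scales, FOSL2 and JUND lie between the lines, and JUNB lies below the lower line on the scales without a pseudocount.

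ATF3 and JUN passed 1.5-fold on each of these scales. Their log2 ratios ran from 1.09 to 1.37 for ATF3 and from 0.80 to 0.90 for JUN. By coverage, values were scaled to the summed reads, and every retained AP-1 gene lay lower than by FPKM without a pseudocount. For JUN the log2 ratios were 0.80 and 0.90, and for JUND -0.53 and -0.41. JUNB was at -0.60 by FPKM and at -0.75 by coverage, both without a pseudocount and past the threshold. With a pseudocount of 1 it was at -0.33 by FPKM and at -0.14 by interval midpoints. Its midpoints were 0.600 in EtOH and 0.447 in R5020, below the pseudocount, so the values with and without it are not alike.

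The single PR binding site within 50 kb of JUN lay inside the gene, centred 2.21 kb from the start, in UTR sequence, and its score of 124 was the highest of the 20 sites around the AP-1 genes. JUNB had 3 sites. The site in its coding exon was centred 0.758 kb from the start and scored 90.5. The others were centred 8.95 kb and 7.58 kb upstream, in introns of HOOK2, with scores of 100.05 and 54.8. The transcript start nearest to the first was that of HOOK2 and the start nearest to the second was that of JUNB. The stretch of the lower-scoring intronic site is shown because it holds the PRE core, in capitals, and that of the coding exon because it lies in the gene and holds none of the motifs searched. Both are from hg19, plus strand.
JUNB site 7.58 kb upstream, chr19:12894566-12894865: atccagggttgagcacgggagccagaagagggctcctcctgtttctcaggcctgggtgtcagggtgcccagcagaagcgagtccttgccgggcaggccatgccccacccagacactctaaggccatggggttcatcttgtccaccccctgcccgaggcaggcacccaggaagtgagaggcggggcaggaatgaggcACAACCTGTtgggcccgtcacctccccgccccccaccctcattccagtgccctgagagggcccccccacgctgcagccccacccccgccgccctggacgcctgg
JUNB coding exon site, chr19:12902909-12903208: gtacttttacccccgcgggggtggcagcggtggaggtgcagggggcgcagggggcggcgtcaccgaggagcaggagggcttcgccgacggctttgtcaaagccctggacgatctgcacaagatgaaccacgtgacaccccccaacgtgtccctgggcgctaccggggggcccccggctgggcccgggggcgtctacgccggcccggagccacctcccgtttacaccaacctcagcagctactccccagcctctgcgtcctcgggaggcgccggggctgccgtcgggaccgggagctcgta

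JUND had no PR binding site within 50 kb, and the nearest lay 92.8 kb upstream, with a score of 108. The start nearest to that site was that of GDF15, which read 0.174 and 0.297 FPKM.

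Of the FOS family, FOSL2 (Fra-2) was the only gene retained. It read 2.01 FPKM in EtOH and 2.32 FPKM in R5020. The log2 fold change was 0.14 and the intervals overlapped. An antisense transcript, FOSL2-AS1, overlaps part of it. FOSL2 supplied 72.01% of the FPKM of the FOS family in EtOH and 84.1% in R5020. FOSL1 (Fra-1), which is abundant in many invasive breast cancer cells, read 0.410 and 0.265 FPKM.

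FOS and FOSB, the most rapidly and transiently induced members, were low at 3 h in both libraries. FOS read 0.142 FPKM in EtOH and 0.0709 FPKM in R5020, which corresponded to 30.8 and 14.8 reads. FOSB read 0.228 and 0.102 FPKM, or 84.9 and 29.6 reads, all of it from NM_006732, while its other transcript NM_001114171 was listed at 0. FOSB lies within the extent of ERCC1 on the opposite strand, which read 11.7 and 9.04 FPKM, and the split of reads between this pair is uncertain for the same reason. The intervals of FOS, FOSB and FOSL1 overlapped between libraries. The log2 ratio of FOSB depended on the scale, with -0.16 at a pseudocount of 1, -0.70 at a pseudocount of 0.1, -1.16 without one and -1.56 by reads from coverage. Summed over its 4 genes, the FOS family read 2.79 FPKM in EtOH and 2.76 FPKM in R5020, and the JUN family sum was 15.9 and 17.1 times as high. By interval midpoints it was 8.36 and 12.3 times as high.

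In contrast to their low FPKM, FOS and FOSB had PR binding sites inside the gene. FOS had 4 sites within 50 kb. The site in the gene was centred 1.33 kb from the start, in a coding exon, with a score of 66.2, and the others were centred 1.43 kb, 14.7 kb and 24.5 kb upstream with scores of 64.0, 96.0 and 53.7. FOSB had a site in a coding exon, centred 2.78 kb from the start with a score of 82.3, and a second 28.0 kb upstream in an intron of ERCC1 with a score of 82.2. FOSL1 had 6 sites, the most of the 9 genes, but none in the gene and none with FOSL1 as the nearest start. They lay 4.10 kb to 29.5 kb from it, with scores from 56.2 to 113, and the nearest starts were those of FIBP, EFEMP2 and MUS81. FIBP read 12.1 and 11.1 FPKM, MUS81 read 8.12 and 5.35 FPKM, and EFEMP2 was listed at 0 in both libraries. FOSL2 had 1 intergenic site, 15.7 kb beyond its end, with a score of 96.6. The proximal upstream stretch of FOS and a stretch of the FOSB site inside the gene are shown. Sites were annotated by midpoint, so parts of the FOSB stretch may lie outside the coding exon. The stretches are examples of a site before and a site inside a FOS family gene, and neither holds any of the motifs searched. Both are from hg19, plus strand, and UTR bases were left out.
FOS site 1.43 kb upstream, chr14:75743953-75744252: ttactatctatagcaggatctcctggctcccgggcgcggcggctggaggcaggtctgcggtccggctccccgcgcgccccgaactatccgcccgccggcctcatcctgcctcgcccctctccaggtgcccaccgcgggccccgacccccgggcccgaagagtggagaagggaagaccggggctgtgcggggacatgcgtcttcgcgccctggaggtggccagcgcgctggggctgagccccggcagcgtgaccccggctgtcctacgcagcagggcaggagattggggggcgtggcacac
FOSB coding exon site, chr19:45973933-45974232: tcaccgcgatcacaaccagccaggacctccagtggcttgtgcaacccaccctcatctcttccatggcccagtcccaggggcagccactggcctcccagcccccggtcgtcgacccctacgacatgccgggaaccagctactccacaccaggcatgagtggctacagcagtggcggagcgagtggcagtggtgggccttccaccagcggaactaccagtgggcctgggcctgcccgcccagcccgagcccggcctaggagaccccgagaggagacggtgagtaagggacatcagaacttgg

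**Figure D4:**
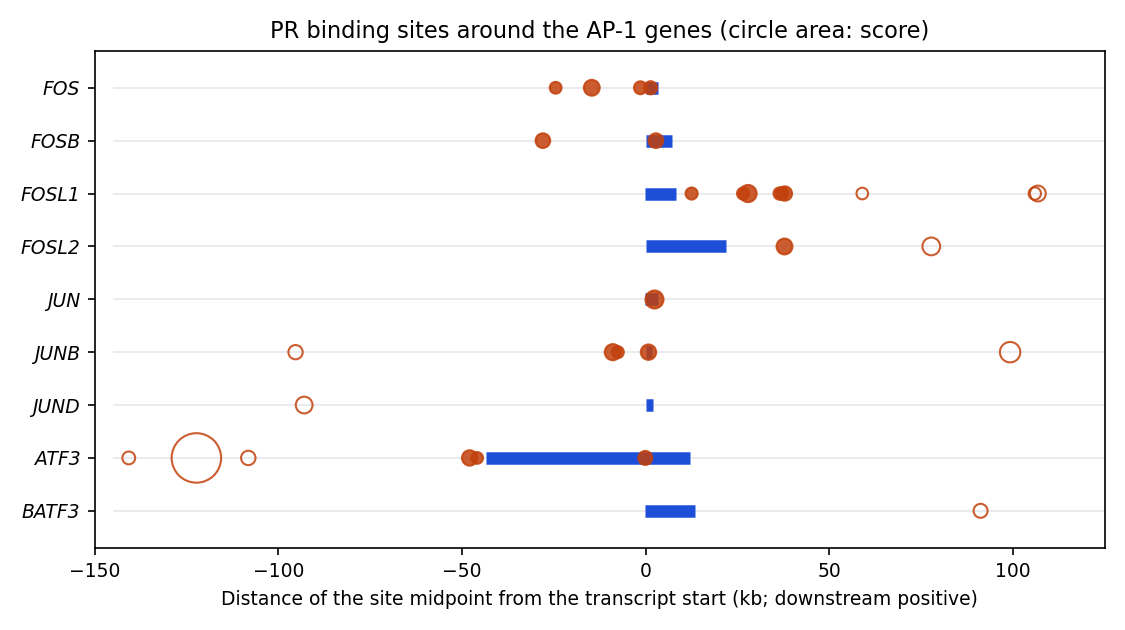
PR binding sites around each AP-1 gene, by the distance of the site midpoint from the main transcript start in kb, downstream positive. Filled circles lie within 50 kb of the gene and open circles between 50 and 100 kb, circle area is proportional to the score, and bars are gene extents. FOS, FOSB, JUN, JUNB and ATF3 have a site within the bar, and the largest circle is the site with a score of 939 upstream of ATF3.

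In all, 20 PR binding sites lay within 50 kb of 7 of the 9 genes, beside 45.7% of all gene symbols with such a site. A site overlapped 5 of the 9 genes (FOS, FOSB, JUN, JUNB and ATF3), beside 18% of all gene symbols. FOS, JUN, JUNB and JUND have an extent of 1 to 4 kb, and a site overlapped each of them but JUND. Of the 2651 gene symbols in this size class, 7.36% had an overlapping site. FOSB and ATF3 are longer, with 7185 bp and 55444 bp. Genes that were higher in R5020 had an overlapping site in 34.6% of cases and genes that were lower in 25.9%, beside 22.5% of all retained genes. The median extents of the higher and lower genes were 38197 bp and 9129.5 bp, so these shares are not comparable without regard to length. A site lay within 50 kb of 61.4% of the higher and 61.0% of the lower genes. Of the 5 AP-1 genes with an overlapping site, ATF3 and JUN were higher in R5020, JUNB was under the threshold, and FOS and FOSB were not retained. The scores of the 20 sites ran from 53.2 to 124 with a median of 77.1, and 11 of them were above the median of all sites. The farthest of them lay 29.5 kb from its gene, FOSL1, and the first beyond the limit lay 50.5 kb from FOSL1 and 55.7 kb from FOSL2. The transcript start nearest to the site was that of an AP-1 gene for 12 of the 20. By midpoint, 5 sites fell in coding exons, 2 in UTRs, 6 in introns and 7 between genes, that is 25%, 10%, 30% and 35%. Of all sites, 7.35% fell in coding exons, 6.42% in UTRs, 49.0% in introns and 37.3% between genes.

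Motifs were searched on both strands of the central 300 bases of each site, and a match describes letters, not binding. The AP-1 element TGACTCA was in 0 of the 20 sites and in 5.05% of all sites. The cAMP response element TGACGTCA was in 0 of 20 and 0.259%. The PRE core was in 2 of 20, the ATF3 and JUNB stretches shown above, and in 8.19% of all sites, and the half-site TGTTCT was in 3 of 20 and 17.7%. Beyond the central 300 bases, TGACTCA was in the FOSB site that lies in an intron of ERCC1, and TGTTCT in the coding exon site of FOS. The shares over all sites at their whole width were not computed. The CArG box, the element of serum response factor in the FOS promoter, was in 0 of 20 and 0.877%. The PRE core was more frequent among strong sites, with 25.0% of the 300 highest scores against 7.55% of sites with scores up to 130, the range that holds all 20. The median GC content of these windows was 63.2% around the AP-1 genes and 57.3% over all sites. In the RefSeq promoter windows of GRCh38.p14, 250 bases before to 50 after the start, 7 of the 9 genes had an entry, which gave 8 windows. TGACTCA was in that of FOSL2 (4.95% of all promoters), TGACGTCA in that of JUND (1.85%) and TGTTCT in that of FOSB (14.8%).

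The genes around AP-1 were described in lists. Of 8 other dimer partners of the bZIP class, 4 were retained, 0 were higher and 1 was lower. Of all retained genes, 7.67% were higher and 4.14% were lower. The most abundant was ATF4, the factor of the amino acid and unfolded protein response, with 44.2 and 49.1 FPKM, and ATF2, a partner of JUN, read 5.81 and 6.30 FPKM. ATF7 was the lower gene, with 7.84 FPKM in EtOH and 2.91 FPKM in R5020. This rested on a transcript of 867 nt, NM_001206682, which read 4.90 FPKM in EtOH and was listed at 0 in R5020, whereas the coverage of the gene corresponded to 2224 and 1760 reads.

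Of 19 kinases and factors upstream of AP-1, 17 were retained, 1 was higher and 0 were lower, beside 7.67% and 4.14% of all retained genes. The higher gene was RPS6KA1, which encodes the ribosomal S6 kinase RSK1, with 2.61 FPKM in EtOH and 4.61 FPKM in R5020. Among the more abundant genes of the list, MAP2K2 (MEK2) read 9.27 and 7.79 FPKM, and MAPK9 (JNK2) read 9.23 and 9.56 FPKM. All 6 genes of JUN turnover and its cofactors were retained, and 0 were higher or lower. COPS5, a signalosome subunit that binds c-Jun, read 23.7 and 24.4 FPKM, and the ubiquitin ligase genes ITCH and RFWD2 (COP1) read 8.21 and 9.27 FPKM and 6.81 and 6.57 FPKM.

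Other immediate-early genes moved in both directions. Of 21, 13 were retained, 7 were higher and 4 were lower in R5020, and the median log2 fold change was 0.63. Of all retained genes, 7.67% were higher and 4.14% were lower. CYR61, a secreted matrix protein, read 8.84 FPKM in EtOH and 47.6 FPKM in R5020, and MYC read 1.53 and 8.31 FPKM. IER2 was lower, with 4.90 and 1.84 FPKM, as was the dual-specificity phosphatase gene DUSP5 with 1.86 and 0.384 FPKM. ZFP36L1, a decay factor of AU-rich mRNAs and the most abundant of the list, read 58.7 and 80.8 FPKM, under the threshold. IER3 and the antiproliferative gene BTG2 were the other lower genes, with 35.1 and 18.0 FPKM and 3.50 and 1.57 FPKM, and IER5 read 13.1 and 11.7 FPKM. CYR61 and MYC were named as the 2 largest rises of the list, and the changes of JUN and ATF3 were smaller. The other higher genes had log2 fold changes of 1.54 (DUSP1), 0.96 (ZFP36), 0.84 (GADD45B), 0.64 (KLF6) and 0.63 (KLF10). ATF3 at 1.1 and JUN at 0.85 thus lay within the range of the higher genes.

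Of 16 textbook AP-1 targets, 7 were retained, 4 were higher and 1 was lower, with a median log2 fold change of 0.74. The shares of all retained genes were 7.67% higher and 4.14% lower. CCND1, which encodes cyclin D1, read 22.2 FPKM in EtOH and 120 FPKM in R5020, the largest log2 fold change of these lists at 2.38. CD44, the hyaluronan receptor, read 3.58 and 12.0 FPKM, and EZR, the membrane linker ezrin, read 33.5 and 56.6 FPKM. The fourth higher gene, VEGFA, which encodes an angiogenic factor, read 4.79 and 11.7 FPKM. TIMP1, an inhibitor of matrix metalloproteinases, was lower, with 3.57 and 1.85 FPKM. The metallothionein gene MT2A read 28.3 and 25.1 FPKM. The collagenase and stromelysin genes MMP1 and MMP3, as well as MMP9, IL6, IL8 and SPP1, were listed at 0 in both libraries. Many of these genes answer to factors other than AP-1, and the part of AP-1 in their change was not tested.

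**Figure D5:**
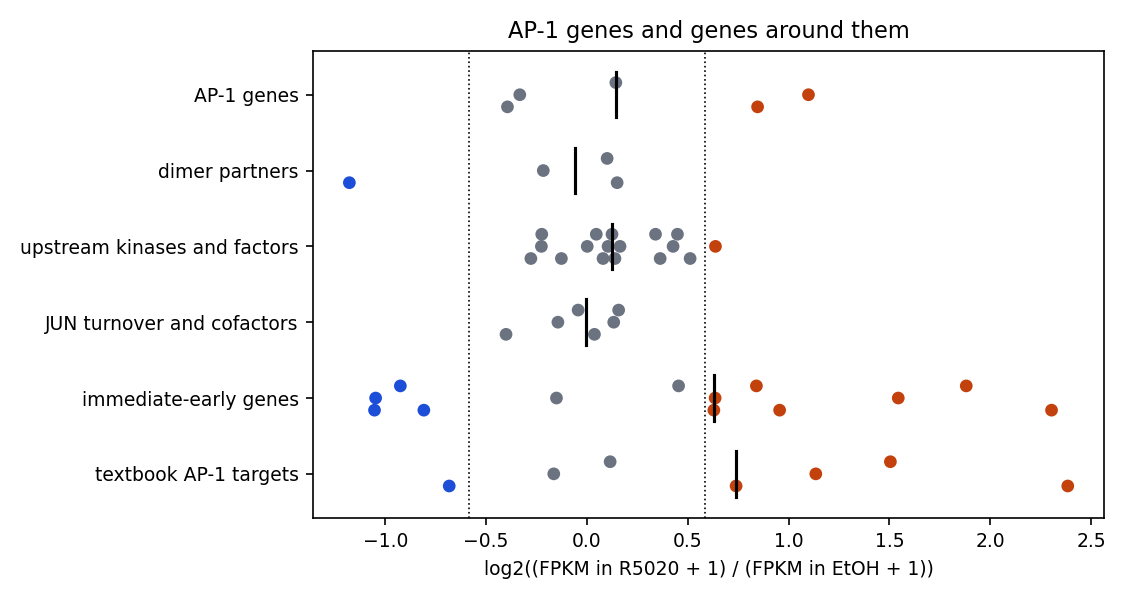
log2 fold change of each retained gene, with a pseudocount of 1 FPKM, for the AP-1 genes and 5 lists around them. Dotted lines mark 1.5-fold, short vertical bars are medians, and points past the threshold are coloured. The medians of the immediate-early genes and of the AP-1 targets are 0.63 and 0.74, and those of the other lists lie between -0.06 and 0.14.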

How the data were processed

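RNA-seq libraries of EtOH- and R5020-treated T47D cells and a PR ChIP-seq library of R5020-treated cells were analysed, 1 of each, with groups taken from the sample labels and doses and times from the methods of the study. The input DNA was not analysed here. The authors used Trimmomatic, TopHat on hg19 and Cufflinks, and for each of 41138 RefSeq transcripts gave an FPKM, its interval, a status and a coverage signal. The deposited FPKM already corrects for transcript length and library size, so no count test was made. The deposited coverage is not divided by library size, and coverage times length over 50 nt gave the reads quoted. PR reads were aligned with Bowtie 1.1.2, and the authors called sites with MACS against input and deposited a score of 50 or more for each.

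Transcripts were summed to gene symbols. Sites were tied to a gene by the distance from their nearest edge to its transcript extent, annotated by midpoint with GENCODE release 44 on GRCh37, and 3 on unplaced contigs were left out of the sequence search. Cufflinks marked 9 transcripts in EtOH and 13 in R5020 as failed, none of them of an AP-1 gene. The members and lists were chosen with earlier results of these data known. Named were all 9 genes, per list the 2 largest rises and falls past 1.5-fold and the 3 highest levels in EtOH, the 3 genes nearest to ATF3, and the genes at sites within 50 kb. The site of score 939, the sites nearest to JUND and BATF3 with their nearest genes, and the genes listed at 0 were named after their values were seen. The same holds for VEGFA, BTG2, DUSP1, ZFP36, GADD45B, KLF6 and KLF10. The values of 1 gene that this rule names are not reported here. Scripts were tested on simulated data. Python 3.11.15, pandas 2.3.3, numpy 2.4.6 and matplotlib 3.10.9 were used.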

Additional observations from a re-analysis of the deposited data

How the results depend on the processing

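Of 168 values recomputed under the alternatives, 143 stayed on the same side of 1.5-fold, or within 1.5 times for counts, 25 moved and 0 reversed. A reversal was defined only for retained AP-1 genes past 1.5-fold, that is for ATF3 and JUN, and never for counts. Some alternatives could move little. The highest transcript equals the sum for a gene with a single expressed transcript, and the rescaling factor was 1.008. The tally is therefore not a measure of how firm the values are. At 2-fold, 1 AP-1 gene (ATF3) was higher in place of 2, and 0 upstream kinases and factors were higher, 3 immediate-early genes were higher and 2 lower, and 0 AP-1 targets were lower. With a pseudocount of 0.1, 2 upstream genes were higher. Without filter on FPKM, with 1 FPKM required in both libraries, and after rescaling to a median log2 ratio of 0, no count moved by over 1.5 times. Taking the highest transcript and not the sum, 1 gene of JUN turnover was lower. The following were chosen after the data were seen. Without a pseudocount, 1 AP-1 gene (JUNB) was lower and 2 upstream genes were higher. By reads from coverage, 1 AP-1 gene (JUNB) and 1 gene of JUN turnover were lower and 0 dimer partners were lower. By interval midpoints, 0 AP-1 targets were lower. The low genes FOS and FOSB were at -1.01 and -1.16 without a pseudocount. With PR binding sites of score 100 or more, 3 sites near 3 AP-1 genes remained in place of 20 near 7, and within 10 kb there were 11 sites. The shares of all genes with a site under these limits were not computed, and the median score of all sites was 74.5. The cause of these moves was not tested. With 1 library per condition, no paired analysis was possible because the labels give no replicate numbers and no replicate could be left out. The spread between cultures is unknown, and the intervals of Cufflinks do not stand for it.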

Other observations

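PR binding sites were also counted around the lists. A site lay within 50 kb of 6 of 8 dimer partners, 11 of 19 upstream kinases and factors, 13 of 21 immediate-early genes, 8 of 16 AP-1 targets and 1 of 6 genes of JUN turnover. A site overlapped the extent of 4, 6, 6, 3 and 0 of them. Of all gene symbols, 45.7% had a site within 50 kb and 18.0% an overlapping one. Of all retained genes, 52.7% and 22.5% did. Median extents ran from 4437 bp for the immediate-early genes to 91168 bp for those of JUN turnover, so that these shares are not comparable without regard to length. Of the sites 50 to 100 kb from an AP-1 gene, 2 lay in an intron of OVOL1, an epithelial transcription factor, 98.3 kb and 97.6 kb from FOSL1. OVOL1 read 1.46 FPKM in EtOH and 0.262 FPKM in R5020, and it was named after its values were seen.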
